A study of Mus musculus with 2 samples.

Results

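B1 B cells of the mouse omentum are described here, in single cells from WT mice and from mice with a diphtheria toxin receptor (DTR) knocked into Postn. A cell was taken as a B1 cell where it had UMIs (unique molecular identifiers, each standing for 1 captured RNA molecule) of the B cell genes Cd79a and Ms4a1, none of the T cell gene Cd3e or of Fcer2a, which encodes the CD23 of follicular B cells, and UMIs of at least 2 of 7 B1 marker genes: Zbtb32, Bhlhe41, Fcrl5, Sox5, Cdh17, Nid1 and Adm. Cells rich in Jchain, which encodes the joining chain of secreted antibody, and cells with at least 2 of 4 cycling markers were left out. These conditions chose 617 of 8680 WT cells and 297 of 5734 DTR cells, 914 of 14414 in all. The members were therefore chosen by measured values, and the levels of those 7 markers are given as a description only.

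The study profiled omentum cells of C57BL/6 mice by droplet sequencing, to ask how omental leukocytes change when stromal cells that express Postn are depleted. The WT group had no DTR allele, and the DTR group was heterozygous for the receptor, which the Postn promoter drives in the stromal cells that express Postn, of which B1 cells held 1 UMI in WT and 0 in DTR. Both groups received diphtheria toxin (DT) and were sampled at 5 days, so WT serves as the toxin control. Each group was 1 library, in which cells of several mice were pooled, with the age of the mice not given in the labels. With 1 library per group no difference between WT and DTR could be tested, and every interval below covers counting error only.

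B1 cells are a lineage of B cells that seed the body cavities early in life, renew themselves there and secrete natural antibodies, mostly of the IgM class, without prior immunisation. In the omentum they lie in milky spots, small clusters of leukocytes around stromal cells through which lymphocytes pass to and from the peritoneal cavity. Many B1 cells carry germline-encoded receptors that bind phosphatidylcholine, a lipid of dying cell membranes and of bacteria, and 2 pairs of V segments are known for this binding: Ighv11-2 with Igkv14-126, and Ighv12-3 with Igkv4-91. B2 cells, the conventional follicular B cells, use V segments broadly and carry CD23 and IgD.

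The V segments of those 2 pairs are shown because they are the known B1 receptors, and the first pair led the V segments of B1 cells in both libraries. Each run holds the last coding bases of the second exon, 5′ to 3′ on the coding strand, from the GENCODE transcripts of GRCm38. Capitals run from the last cysteine codon in frame, where the antigen-binding loop called CDR3 begins, to the end of the segment. Ighv11-2 lies at chr12:114048241-114048540 on the minus strand, Igkv14-126 at chr6:67896345-67896642 on the plus strand, Ighv12-3 at chr12:114366521-114366820 on the minus strand and Igkv4-91 at chr6:68768555-68768854 on the minus strand.
Ighv11-2: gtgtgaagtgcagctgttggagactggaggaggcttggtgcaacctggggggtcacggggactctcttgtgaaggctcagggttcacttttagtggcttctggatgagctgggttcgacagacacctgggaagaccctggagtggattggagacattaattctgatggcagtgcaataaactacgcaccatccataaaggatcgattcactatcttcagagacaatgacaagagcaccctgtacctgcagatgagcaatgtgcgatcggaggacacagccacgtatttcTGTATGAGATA
Igkv14-126: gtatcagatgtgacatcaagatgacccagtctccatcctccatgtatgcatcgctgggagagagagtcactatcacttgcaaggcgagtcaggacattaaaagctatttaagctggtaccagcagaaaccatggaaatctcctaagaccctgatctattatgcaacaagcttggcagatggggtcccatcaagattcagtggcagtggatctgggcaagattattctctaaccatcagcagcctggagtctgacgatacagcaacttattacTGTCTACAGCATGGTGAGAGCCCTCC
Ighv12-3: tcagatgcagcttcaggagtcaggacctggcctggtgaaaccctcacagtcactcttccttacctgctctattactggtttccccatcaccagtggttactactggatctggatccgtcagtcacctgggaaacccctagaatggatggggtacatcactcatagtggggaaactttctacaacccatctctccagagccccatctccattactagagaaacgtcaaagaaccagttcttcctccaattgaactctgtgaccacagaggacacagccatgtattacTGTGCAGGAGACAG
Igkv4-91: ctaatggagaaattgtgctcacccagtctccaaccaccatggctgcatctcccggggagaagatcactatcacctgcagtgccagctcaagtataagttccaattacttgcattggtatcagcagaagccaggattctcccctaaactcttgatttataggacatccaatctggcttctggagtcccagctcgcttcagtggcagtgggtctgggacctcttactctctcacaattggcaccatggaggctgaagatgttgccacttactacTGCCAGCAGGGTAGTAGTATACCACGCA

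Depth differed between the libraries and between the gates. B1 cells held a median of 9463 UMIs in WT and 7260 in DTR, against 4445 and 3511 in B2 cells (Fcer2a detected, none of the 7 markers) and 4787.5 and 4438 in T cells (Cd3e detected, Cd79a and Ms4a1 not). A cell with more UMIs passes more easily a rule that asks for 2 detected markers, and B1 cells were the deepest of these 3 gates in both libraries. Free immunoglobulin RNA was higher in the DTR library, with values beside the V segments below. There were 65 barcode sequences that occurred in both libraries. Mitochondrial RNA made up a median of 2.55% of UMIs in WT B1 cells and 2.43% in DTR B1 cells.

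The marker rule cut a continuum. Among cells that passed all other conditions, 189 WT and 166 DTR cells held 1 marker and stayed outside, while 179 WT and 134 DTR members held exactly 2. At least 3 markers were held by 438 of the 617 WT members and by 163 of the 297 DTR members. At the Jchain limit, the highest log value inside was 3.92 in WT and 3.79 in DTR, and the lowest outside was 4.10 and 3.97. The Jchain limit left out 37 WT and 68 DTR cells that passed the rest, and the Fcer2a condition 214 WT and 21 DTR cells. Both conditions thus took unequal numbers from the libraries, and their effect on the B1 shares was not tested.

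The cells chosen had the known features of B1 cells in genes that the rule did not use. Levels are given as UMIs per 10000 UMIs of a cell, averaged over cells. Plac8, a small cysteine-rich protein abundant in innate-like lymphocytes, stood at 15.1 in WT and 9.52 in DTR B1 cells, against 3.60 and 2.32 in B2 cells. Cd9, a tetraspanin found on B1 and marginal zone B cells, stood at 1.31 and 0.95, against 0.13 and 0.05. Ctla4, an inhibitory receptor that peritoneal B1 cells are known to express, stood at 1.17 and 0.99, against 0.04 and 0.12. These 3 genes were thus higher in B1 than in B2 cells of both libraries.

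The markers of B2 cells ran the other way. Ighd, the heavy chain of IgD, stood at 0.74 in WT and 0.82 in DTR B1 cells, against 5.78 and 5.69 in B2 cells. Vpreb3, which encodes a chain that assists receptor assembly in B2 and immature cells, stood at 0.14 and 0.58, against 3.85 and 6.48. Cr2, the complement receptor CD21, stood at 0.29 and 0.12, against 2.69 and 1.28. With every cell thinned to 2000 UMIs, so that depth was equal, Plac8 was detected in 88.5% of WT and 80.3% of DTR B1 cells and in 42.8% and 28.8% of B2 cells, whereas Ighd was detected in 13.9% and 14.9% of B1 cells and in 65.1% and 67.9% of B2 cells. The B1/B2 separation held at equal depth for both genes.

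The 2 classical surface markers were sparse. Cd5, which splits B1 cells into B1a and B1b, stood at 0.23 in WT and 0.12 in DTR B1 cells, where 146 and 28 UMIs were found in all, and at 0.01 in WT B2 cells. Spn, which encodes CD43, stood at 0.35 and 0.34, against 0.06 and 0.09 in B2 cells. Cd5 UMIs in 19.0% of WT and 8.75% of DTR B1 cells were too few for a split of the members into B1a and B1b, and none was made.

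**Figure D1:**
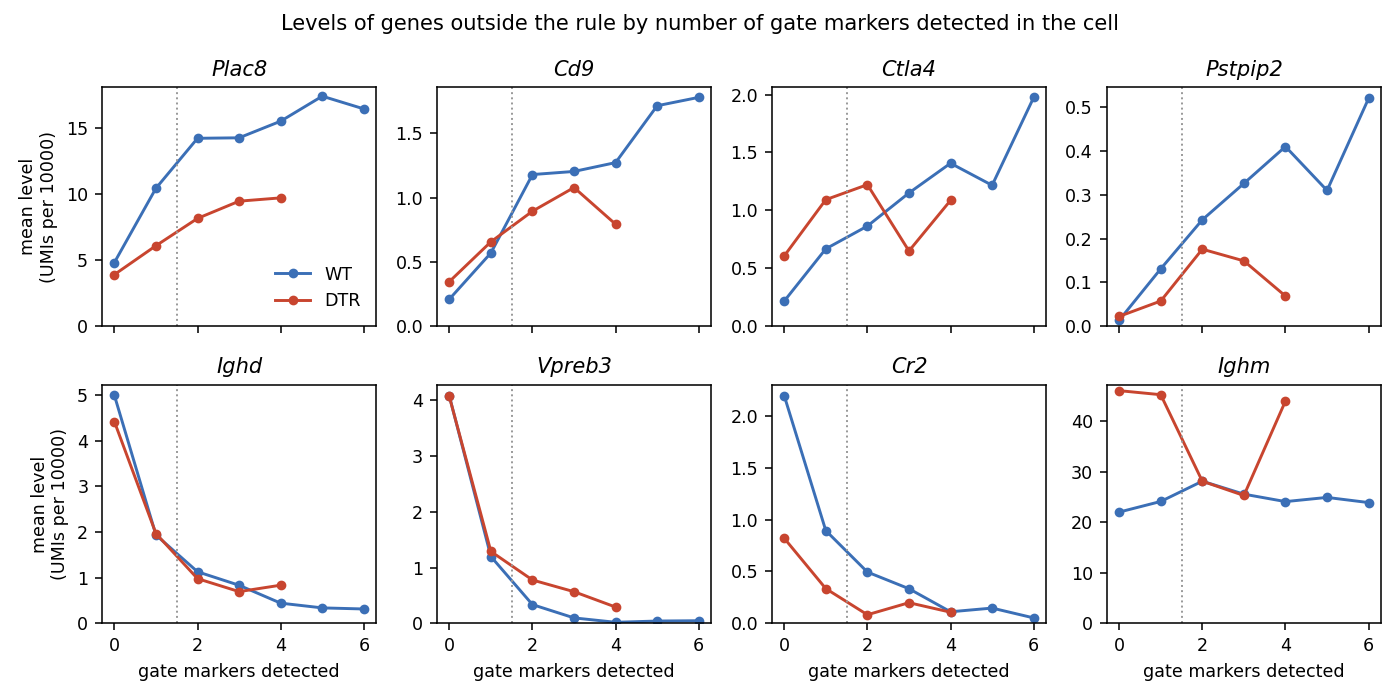
Mean level (UMIs per 10000, y axis) of 8 genes outside the rule against the number of the 7 B1 markers detected in a cell (x axis), for WT and DTR cells that pass the other conditions, in bins of at least 20 cells, with a dotted line at the rule's limit. From 0 to 4 markers Plac8 runs from 4.80 to 15.5 in WT and from 3.89 to 9.69 in DTR, and Ighd from 5.00 to 0.44 and from 4.42 to 0.84.

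As the number of markers grew, several genes outside the rule moved with it, as the plot of levels by marker number shows, while Ctla4, Pstpip2 and Ighm followed no steady course in DTR. From cells with 0 markers to cells with 4, Plac8 went from 4.80 to 15.5 in WT and from 3.89 to 9.69 in DTR, while Vpreb3 went from 4.08 to 0.02 and from 4.07 to 0.29. Levels at 1 marker lay between those at 0 and 2 markers for Plac8 and Vpreb3 in both libraries.

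B1 cells were mostly IgM cells. Ighm, the heavy chain of IgM, was the constant region with the most UMIs in 605 of 615 WT members with such UMIs (98.4%) and in 290 of 296 DTR members (98.0%). Ighg3, the constant region of IgG3, led in 8 WT and 3 DTR members. Ighd led in none of the 615 WT and 296 DTR members, where the exact intervals allow up to 0.598% and 1.24%, against 83 of 948 B2 cells of WT (8.76%). Class was thus almost uniform within the B1 cells of both libraries.

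Whether B1 cells were scarcer in the DTR library depended on what they were counted against. Of all cells they made up 7.11% in WT (95% exact interval 6.58 to 7.67) and 5.18% in DTR (4.62 to 5.79), a ratio of 0.729 (0.637 to 0.833). Of the cells that passed the B cell, Jchain and Cd3e conditions, they made up 22.9% in WT and 28.9% in DTR, a ratio of 1.26 (1.12 to 1.42). Outside plasma cell and neutrophil gates they made up 7.93% and 10.8%, a ratio of 1.36 (1.19 to 1.55). The direction thus turned with the denominator, and fewer B1 cells and more of the other cells cannot be told apart in such shares. Depth also entered: with the rule applied to cells thinned to 2000 UMIs, 218 of 8312 WT cells (2.62%) and 70 of 5279 DTR cells (1.33%) passed, a ratio of 0.506.

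The B1 cell genes past 2-fold higher in the DTR library included genes of cholesterol export, glucocorticoid response and cytokine signalling, and those past 2-fold lower included genes of cholesterol synthesis, the receptor Ccr1, the cytokines Il10 and Lta, and 5 B1 identity genes. Of 6962 genes that reached 100 UMIs in WT and DTR together, 142 were past 2-fold higher in DTR, which is 2.04%, and 96 were past 2-fold lower, which is 1.38%. Counts of list members past 2-fold, given below, are to be read beside these shares. The 6962 include 113 V, D and J segments of antigen receptors, of which 29 were past 2-fold higher and 28 lower. The median log2 ratio of DTR over WT was 0.03. In B2 cells, with such segments counted too, 54 of 5853 genes were past 2-fold higher (0.923%) and 129 lower (2.2%). Log2 ratios below were taken on mean levels plus 0.02, which understates the ratio of genes with low levels. Where an interval follows a log2 ratio, it is the 95% exact interval of the log2 ratio of summed UMIs.

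**Figure D2:**
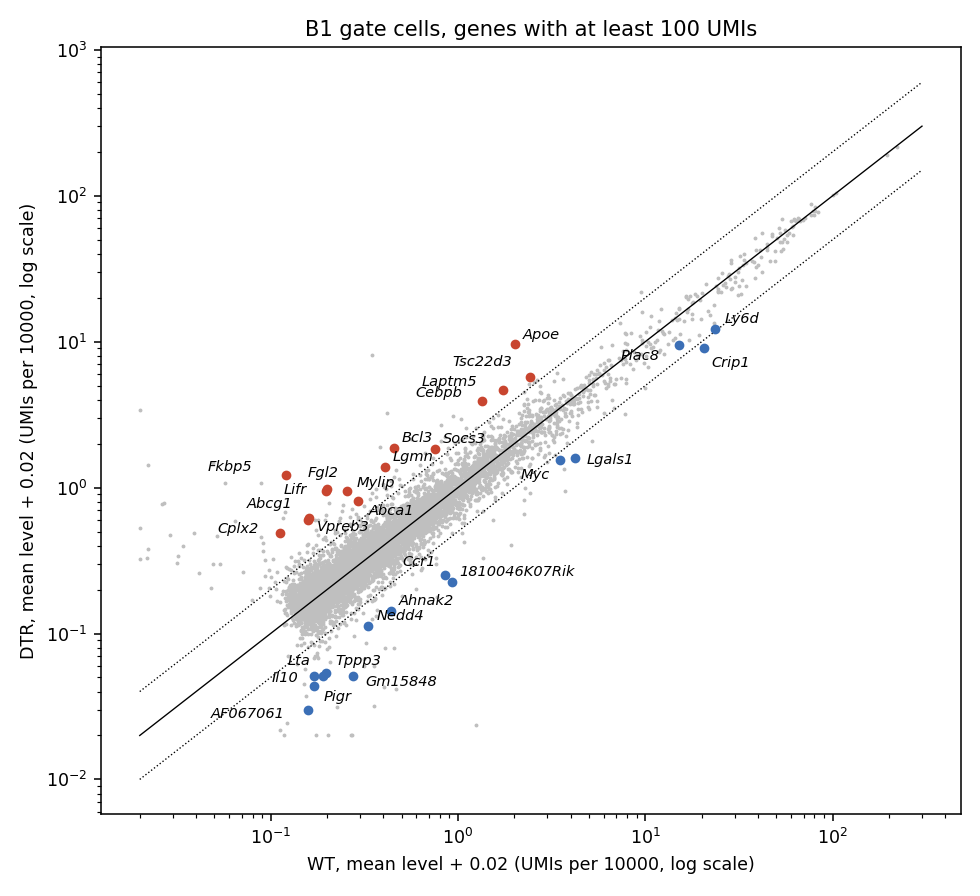
Mean level in DTR against mean level in WT (both axes UMIs per 10000 plus 0.02, log scale) for the genes compared in B1 cells, 1 point per gene, with the line of equality and dotted lines at 2-fold. Red and blue points are the named genes above and below equality. Apoe goes from 2.0 to 9.57 and Fkbp5 from 0.10 to 1.21, while Crip1 goes from 20.5 to 9.06 and Ccr1 from 0.84 to 0.23.

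Fkbp5 differed most among the genes named by rule. It encodes a co-chaperone of the glucocorticoid receptor and is itself a classical target of that receptor. Its level was 0.10 in WT and 1.21 in DTR B1 cells, with UMIs in 9.40% and 52.2% of cells, a log2 ratio of 3.35 (2.97 to 3.76). Other cells shared the direction: Fkbp5 stood at 0.14 and 1.07 in B2 cells and at 0.29 and 0.90 in T cells.

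Other targets of the glucocorticoid receptor stood with it. Tsc22d3, which encodes the glucocorticoid-induced leucine zipper, went from 2.39 in WT to 5.67 in DTR, a log2 ratio of 1.24 (1.09 to 1.32). Dusp1, a phosphatase that switches off MAP kinases, went from 0.86 to 1.85, and Btg2, an antiproliferative gene, from 2.61 to 5.43. Of the 17 glucocorticoid response genes compared, 7 were past 2-fold higher and none lower, with a median log2 ratio of 0.62 against 0.03 over all genes. Of the other 3 past 2-fold higher, Klf13 went from 0.95 to 2.02, Cdkn1a from 0.07 to 0.30 and Mt1 from 0.18 to 0.77, where 75 of the 253 Mt1 UMIs of DTR were in 1 cell. Nr3c1, the receptor itself, had a log2 ratio of -0.02.

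Genes that export cholesterol were higher in the DTR library. Apoe, which encodes the lipid carrier apolipoprotein E, was at 2.0 in WT and 9.57 in DTR B1 cells, a log2 ratio of 2.24 (2.40 to 2.6), and its UMIs were found in 45.7% and 72.4% of cells. The transporter Abcg1 was at 0.14 and 0.60 (log2 ratio 1.95), and the transporter Abca1 at 0.27 and 0.79 (1.47). Mylip, a ubiquitin ligase that degrades the LDL receptor, was at 0.24 and 0.93 (1.89). All 4 are known targets of LXR, the nuclear receptor for oxysterols.

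These genes were also higher in B2 cells of the DTR library, where Apoe went from 1.08 to 4.03, Abcg1 from 0.08 to 0.43, Abca1 from 0.33 to 0.81 and Mylip from 0.55 to 1.36. Of the 10 LXR target genes compared in B1 cells, 5 were past 2-fold higher and none lower, the other member past 2-fold being the phospholipid carrier Pltp, at 0.15 and 0.36, and the median log2 ratio was 0.97. The list was drawn up after these levels had been seen, so its count is a description. Apoe is also abundant in macrophages, and its UMIs in T cells, at 0.34 in WT and 0.64 in DTR, stayed far below those in B1 cells. Without the 70 WT and 44 DTR cells that held at least 3 UMIs of 28 macrophage, neutrophil and dendritic cell genes, Apoe was at 1.87 and 6.74.

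Genes of cholesterol synthesis stood on the other side. Hmgcs1, which makes the HMG-CoA that feeds the pathway, was at 0.18 in WT and 0.06 in DTR, a log2 ratio of -1.35 (-2.52 to -0.86). Cyp51, the lanosterol demethylase, was at 0.34 and 0.15 (-1.07), and Idi1, the isopentenyl diphosphate isomerase, at 0.16 and 0.05 (-1.39). Srebf2, the transcription factor that drives the pathway, was at 1.24 and 0.67 and short of 2-fold (-0.87). Of 10 sterol synthesis genes compared, 4 were past 2-fold lower, Fdps being the other, and none higher, with a median log2 ratio of -0.79. B2 cells shared the direction, with Srebf2 at 1.75 and 0.61 and Cyp51 at 0.39 and 0.15. This list too was drawn up after the levels had been seen.

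In the list of IL-6 family receptors and STAT3 targets, 4 of 13 genes compared were past 2-fold higher in DTR. Lifr, the receptor of leukaemia inhibitory factor, was at 0.18 in WT and 0.93 in DTR B1 cells, a log2 ratio of 2.27 (1.87 to 2.54), with UMIs in 9.24% and 44.8% of cells. In B2 cells Lifr was at 0.03 and 0.36. In T cells it was at 0.01 in both libraries, with UMIs in 0.80% of WT and 0.63% of DTR cells, which marks the free-RNA background.

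The other 3 are downstream genes of STAT3, the transcription factor of these receptors. Bcl3, an atypical IκB protein, went from 0.44 to 1.85, a log2 ratio of 2.04 (1.80 to 2.25), Cebpb, a transcription factor of acute inflammation, from 1.32 to 3.88 (1.54), and Socs3, the feedback inhibitor of the pathway, from 0.74 to 1.81 (1.28). Stat3 itself went from 1.21 to 2.0 and Pim1, a kinase induced by STAT3, from 3.34 to 6.05, both short of 2-fold. None of the 13 was past 2-fold lower, and the median log2 ratio was 0.51. The 3 below 0 were the shared receptor chain Il6st (-0.33), the kinase Tyk2 (-0.41) and the feedback inhibitor Cish (-0.75). This list was also drawn up after the levels had been seen. The direction was shared outside B1 cells for Bcl3, at 0.49 and 1.68 in B2 and 0.30 and 1.08 in T cells, and for Socs3, at 0.21 and 1.04 in B2 and 1.16 and 2.43 in T cells.

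A few genes were past 2-fold higher in B1 cells while their B2 levels lay close together. Fgl2, which encodes a fibrinogen-like protein secreted by lymphocytes, went from 0.18 to 0.96 in B1 cells, a log2 ratio of 2.30. In B2 cells Fgl2 was at 0.02 and 0.00, from 16 and 0 UMIs, too few to compare. In T cells it was at 0.66 and 0.88. Laptm5, a lysosomal protein that lowers surface antigen receptor, went from 1.72 to 4.62 in B1 cells, a log2 ratio of 1.42 (1.39 to 1.64), and was at 6.46 and 6.19 in B2 cells. Lgmn, the lysosomal protease legumain, went from 0.39 to 1.37 in B1 cells and was at 0.70 and 0.81 in B2 cells. Whether the B1 and B2 ratios differ was not tested, since each rests on the same pair of libraries. Over 29 lysosome genes compared, a list drawn up after the levels had been seen, 4 were past 2-fold higher and the median log2 ratio was 0.15. The other 2 were the sialidase Neu1, from 0.22 to 0.67, and the protease Ctsd, from 0.39 to 0.96, of whose 288 UMIs in DTR 50 were in 1 cell.

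Cplx2 and Vpreb3 completed the 10 highest genes. Cplx2, a complexin known for controlling membrane fusion in secretion, went from 0.09 to 0.47 in B1 cells (log2 ratio 2.13), with UMIs in 6.97% and 24.2% of them, 0.50% and 1.91% of B2 cells and 0.23% and 0.21% of T cells. Vpreb3 went from 0.14 to 0.58 (1.94), while its level in B2 cells was 3.85 and 6.48, so the DTR members held more of this B2 gene but stayed well below B2 cells.

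On the lower side, the chemokine receptor Ccr1 was at 0.84 in WT and 0.23 in DTR B1 cells, a log2 ratio of -1.78 (-2.07 to -1.31), with UMIs in 44.6% and 15.2% of cells. In B2 cells Ccr1 was at 0.06 and 0.05, and in T cells at 0.03 and 0.05. Ccr1 was therefore higher in B1 cells than in B2 or T cells of both libraries.

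The cytokine genes Il10 and Lta were low in B1 cells of both libraries. Il10, the anti-inflammatory cytokine for which regulatory B1 cells are known, had 97 UMIs in WT and 9 in DTR B1 cells, levels of 0.15 and 0.03 and a log2 ratio of -1.75 (-3.25 to -1.10). Lta, one of the lymphotoxin genes, was at 0.17 and 0.03 (-1.90), and Ltb, its partner, at 6.80 and 3.52, short of 2-fold (-0.95). In B2 cells Lta was higher than in B1 cells and also lower in DTR, at 0.51 and 0.18. Il10 was at 0.01 and 0.04 in B2 cells, from 7 and 3 UMIs. In T cells Il10 was at 0.10 and 0.06, so the DTR level in B1 cells was not above it, and thinned to 2000 UMIs it was detected in 3.24% of WT and 0.68% of DTR B1 cells. Both are small numbers of molecules. Of 20 cytokine and cytokine receptor genes compared, 2 were past 2-fold lower and 1 higher.

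Several of the other lowest genes were scarcely found in B2 cells. 1810046K07Rik was at 0.91 in WT and 0.21 in DTR (log2 ratio -2.04), with UMIs in 41.0% and 12.5% of B1 cells and in 0.10% of WT B2 cells. Ahnak2, a large scaffold protein, was at 0.42 and 0.12 (-1.62), and Tppp3, a tubulin-binding protein listed here among B1 identity genes, at 0.18 and 0.03 (-1.88). AF067061 had 98 UMIs in WT and 3 in DTR, a log2 ratio of -2.42, and Nedd4, a ubiquitin ligase, was at 0.31 and 0.09 (-1.57). Unlike the others, Nedd4 was also found in B2 cells, at 0.17 in WT and 0.06 in DTR, and in T cells, at 0.38 and 0.44.

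Pigr, which encodes the transport receptor of polymeric IgA and IgM, and Gm15848, an antisense transcript, lie side by side on chromosome 1 of GRCm38, at 130826684 to 130852249 on the plus strand and 130809977 to 130824084 on the minus strand. Pigr was at 0.15 in WT and 0.02 in DTR (-1.96), and Gm15848 at 0.26 and 0.03 (-2.44). Both neighbours were therefore lower in DTR. B2 cells shared the direction, with Pigr at 0.06 and 0.01 (28 and 1 UMIs) and Gm15848 at 0.15 and 0.03 (77 and 2 UMIs).

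Genes of B1 identity outside the rule were mixed. Of 24 compared, 5 were past 2-fold lower and none higher, with a median log2 ratio of -0.10. Besides Tppp3, the 5 were Lgals1, which encodes the lectin galectin 1 and went from 4.18 to 1.57 (-1.40), Pstpip2, Dnase1l3 and Cd36, a scavenger receptor for lipids. Crip1, a LIM domain protein, was the most abundant of the lower genes named here, at 20.5 in WT and 9.06 in DTR (-1.18), with 8.08 and 4.88 in B2 cells. Others did not move by 2-fold, such as Plac8 (-0.67), Cd9 (-0.45), Ctla4 (-0.24) and Spn (-0.08). Of the B2 markers used above, Ighd stayed within 2-fold (0.15), while Vpreb3 was past 2-fold higher (1.94) and Cr2 past 2-fold lower (-1.16).

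The markers used by the rule differed among themselves, given here as a description. Zbtb32, a repressor of B1 and memory B cell proliferation, was at 1.34 in WT and 0.85 in DTR, Bhlhe41, a transcription factor required for B1a cells, at 0.77 and 0.66, Sox5 at 0.79 and 0.67, Nid1 at 1.21 and 0.80, and Adm, which encodes adrenomedullin, at 0.99 and 0.59. Fcrl5, an inhibitory Fc receptor-like protein, was at 1.07 and 1.73 and Cdh17, a cadherin, at 0.32 and 0.82. Thus 5 of the 7 were lower in DTR and 2 were higher.

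Genes of growth and activation were split. Myc, the growth regulator, was at 3.47 in WT and 1.53 in DTR B1 cells, a log2 ratio of -1.17 (-1.27 to -0.96), and at 3.19 and 2.84 in B2 cells. Cd40, the receptor for T cell help, was at 0.61 and 0.25 (-1.21). Of 22 immediate early genes compared, 6 were past 2-fold higher, among them Egr1 (0.65 and 1.71), Fosl2 (0.34 and 0.96) and Zfp36 (2.36 and 5.09), and Myc was the 1 past 2-fold lower. Over all genes compared, 2.04% were past 2-fold higher and 1.38% lower. The median log2 ratio of the list was 0.69 in B1 cells and -0.16 in B2 cells. Of the 517 Egr1 UMIs of DTR B1 cells, 67 were in 1 cell.

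**Figure D3:**
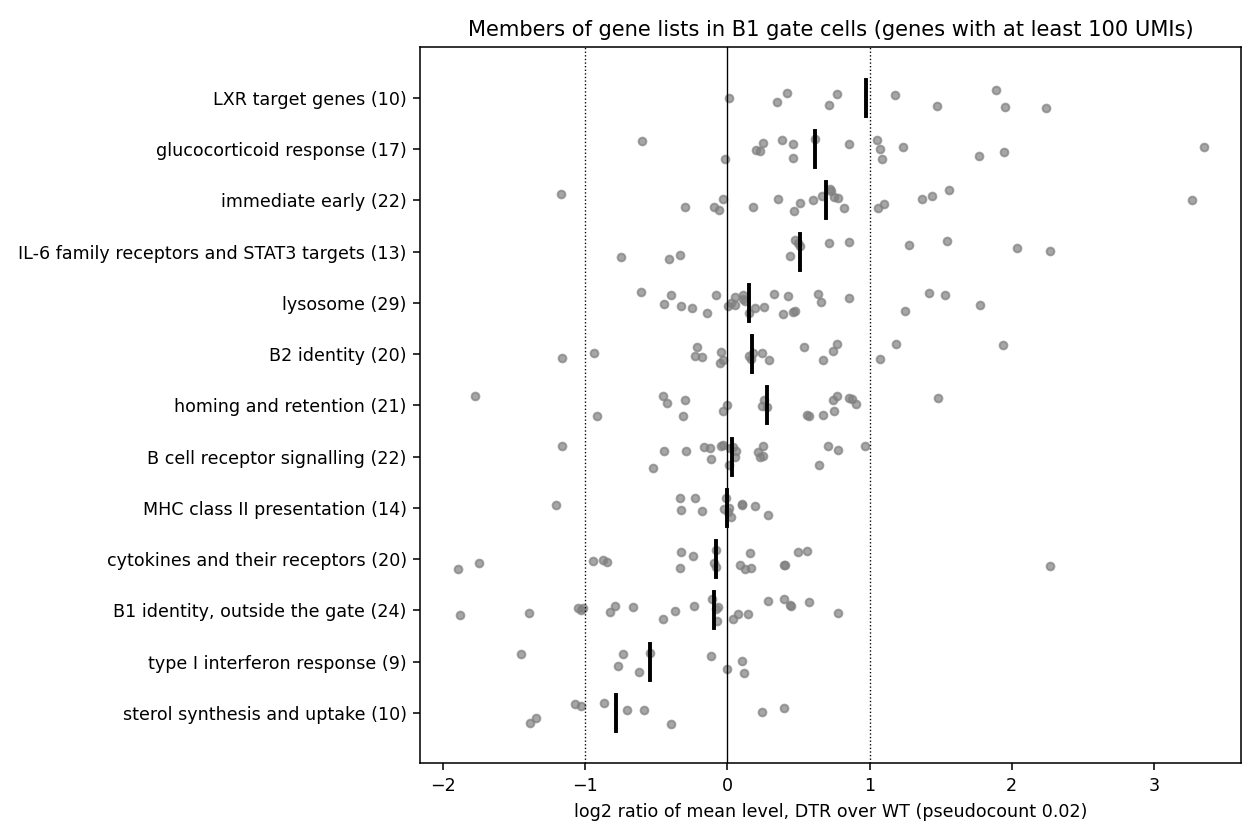
Log2 ratio of DTR over WT in B1 cells (x axis) for the members of 13 of the gene lists (y axis), 1 point per gene, with the list's median and dotted lines at 2-fold. Numbers in brackets are the members compared. The medians of these 13 run from -0.79 for sterol synthesis and uptake to 0.97 for LXR target genes.

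Several programmes of B cells had medians close to equality, as the plot of gene lists shows. Of 22 genes of antigen receptor signalling 1 was past 2-fold, Cr2, and the median log2 ratio was 0.03. Of 14 MHC class II presentation genes 1 was past 2-fold, Cd40, with a median of -0.00, and of 13 glycolysis genes and 17 apoptosis and survival genes none was. The type I interferon response genes were not among these: of 9 compared, 7 had a log2 ratio below 0, and the median was -0.54 in B1 and -0.66 in B2 cells. Ifi27l2a was the 1 past 2-fold lower, at 3.66 in WT and 1.32 in DTR, and had 3.64 and 1.31 in B2 cells.

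Of 21 homing genes compared, 1 was past 2-fold higher and 1 lower, and 8 had a log2 ratio below 0, with a median of 0.28. Klf2, a transcription factor that promotes tissue egress, was at 5.78 in WT and 9.21 in DTR, and its target S1pr1, the receptor for the egress signal sphingosine-1-phosphate, at 1.51 and 2.56. In B2 cells Klf2 ran the other way, at 5.44 and 3.9.

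RNA of other cell types was found in a few members. In the lists of other cell types, of 10 macrophage and monocyte genes 6 reached 100 UMIs, 4 of them past 2-fold higher in DTR and a median log2 ratio of 1.5, with summed levels of 1.21 in WT and 4.79 in DTR B1 cells. Of 10 neutrophil genes 7 reached it, all 7 past 2-fold lower with a median of -2.06, with summed levels of 3.18 and 0.69. 1 WT cell held 1317 of the 1343 UMIs of S100a8. Cells with at least 20 UMIs of the 28 myeloid genes numbered 14 in WT and 12 in DTR. Jchain was at 0.79 in WT and 2.08 in DTR B1 cells, and at 0.88 and 1.95 in T cells, which should lack it. The rule left out Jchain-rich cells among B1 cells and not among T cells. The closeness of these levels therefore cannot show how much of the B1 level is free RNA.

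V segments lie in the 5′ part of the transcripts, which the kit named in the labels captures. A cell was assigned a heavy-chain V segment where 1 segment held at least 3 UMIs and at least 80% of the cell's heavy-chain V UMIs. That was so for 556 of 617 WT B1 cells (90.1%) and 183 of 297 DTR B1 cells (61.6%). Free immunoglobulin RNA was much higher in the DTR library: of T cells, which should have none, 3.79% were assigned in WT and 24.9% in DTR. The segment that led among them was Ighv1-11, in 74.6% and 95.8% of those T cells.

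Ighv11-2, shown above, was the leading heavy-chain segment of B1 cells in both libraries. It was assigned in 165 of the 556 WT cells (29.7%, exact interval 25.9 to 33.7) and in 54 of the 183 DTR cells (29.5%, 23 to 36.7), and in 2 of 631 WT and 1 of 34 DTR B2 cells. The assigned B1 cells held a median of 27 Ighv11-2 UMIs in WT and 26 in DTR, against 3 and 8 in the T cells assigned to it. With at least 10 UMIs required, the shares were 32.2% and 30.6%. The share of Ighv11-2 among assigned B1 cells was thus close in both libraries. Over all B1 cells, assigned or not, it was 26.7% in WT and 18.2% in DTR, where fewer cells were assigned.

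**Figure D4:**
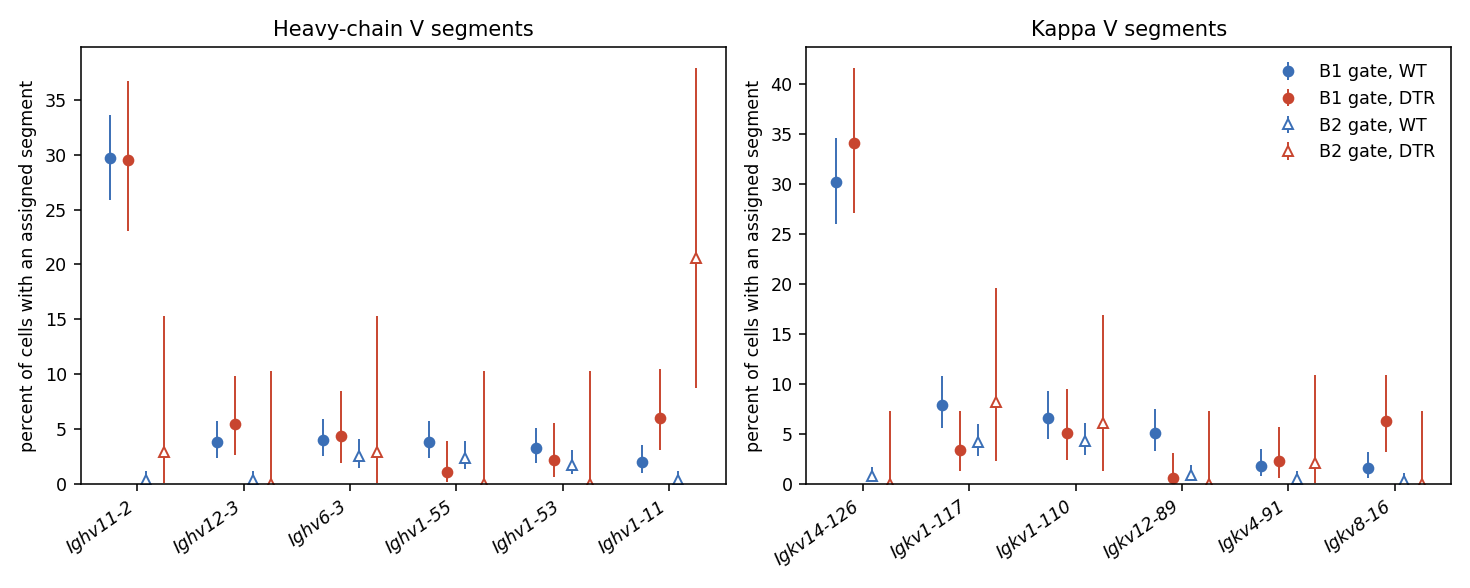
Percent of cells with an assigned heavy-chain (left) or kappa (right) V segment (y axis) that use the segment named on the x axis, for B1 cells (filled circles) and B2 cells (open triangles) of WT (blue) and DTR (red), with 95% exact intervals. Ighv11-2 and Igkv14-126 lead in B1 cells of both libraries, at 29.7% and 29.5% and at 30.2% and 34.1%.

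Other heavy-chain segments were each a few percent. Ighv12-3 was used by 21 WT (3.78%) and 10 DTR B1 cells (5.46%), Ighv6-3 by 22 and 8, and Ighv1-53 by 18 and 4. Ighv1-55 was used by 21 WT cells (3.78%) and 2 DTR cells (1.09%). Ighv1-11 was used by 11 in each (1.98% and 6.01%), and by 7 of 34 B2 cells of DTR. The B1 cells assigned to it held a median of 32 of its UMIs in WT and 60 in DTR, against 5 in those B2 cells and 4 in T cells of either library. The highest Ighv1-11 value in a B1 cell was 10266 UMIs in WT and 9090 in DTR. All segments together, 69 were seen in WT and 54 in DTR B1 cells. The effective number of segments, the inverse of the summed squares of their shares, was 9.89 and 9.59, against 43.1 in WT and 12.6 in DTR B2 cells, the last from 34 cells.

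The light chain followed the heavy chain. Igkv14-126 was used by 137 of 454 WT (30.2%) and 60 of 176 DTR B1 cells (34.1%) with an assigned kappa segment, and by 5 of 674 WT B2 cells (0.742%). Of B1 cells assigned to Ighv11-2 with a kappa segment, 129 of 130 in WT and 44 of 44 in DTR used Igkv14-126, whereas among cells with another heavy-chain segment it was 2.41% of 290 and 1.15% of 87. The pairing was therefore nearly complete in both libraries.

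The second known pair was less tight. Of Ighv12-3 cells 8 of 13 in WT and 3 of 6 in DTR used Igkv4-91, against 0.80% of the 125 DTR cells with another heavy-chain segment. Ighv1-11 went with Igkv8-16 in 7 of 8 WT and 10 of 10 DTR cells, and UMIs of those same 2 segments were found in 23.7% and 21.6% of WT T cells and in 84.7% and 75.1% of DTR T cells. Ighv11-2 and Igkv14-126 were also present as free RNA, with UMIs in 17.3% and 58.3% of WT T cells and in 33.3% and 81.4% of DTR T cells. For the kappa segments of both pairs, assigned B1 cells held higher median amounts than assigned T cells. B1 cells assigned to Igkv14-126 held a median of 131 such UMIs in WT and 71 in DTR, against 4.5 and 6 in T cells. Those assigned to Igkv8-16 held 49 and 46, against 6 and 4. The assignment rule favours this order. In a B1 cell the segment must outweigh the cell's other V UMIs, and T cells should have none of their own. The medians therefore cannot show how much of the B1 amount is free RNA. For Igkv14-126 the lowest B1 value lay below the highest T value, at 4 and 96 in WT and 3 and 52 in DTR. For Igkv8-16 it did so in DTR, at 6 and 9, but not in WT, at 25 and 17.

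In the WT library 2 further pairs stood out, named after their values had been seen. Ighv1-52 went with Igkv1-117 in 15 of 15 cells, and Ighv1-55 with Igkv12-89 in 13 of 18. Among cells with an assigned light-chain segment, 62 of 516 WT (12.0%) and 32 of 208 DTR B1 cells (15.4%) had lambda without kappa. In B2 cells it was 7.16% and 15.5%. Cells with both were counted as kappa, and a lambda segment was assigned in 105 WT and 40 DTR B1 cells in all. By this count kappa was the usual light chain of B1 cells in both libraries.

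Few genes separated Ighv11-2 cells from B1 cells with another assigned segment in both libraries. There were 165 Ighv11-2 and 391 other cells in WT, and 54 and 129 in DTR. Of 3698 genes with at least 50 UMIs in each library, 6 were past 2-fold higher in Ighv11-2 cells of both (0.162%) and 7 past 2-fold lower in both (0.189%). In single libraries 8 genes were past 2-fold higher and 34 lower in WT, and 52 higher and 86 lower in DTR, so most such differences were past 2-fold in 1 library. The V segment was not part of the B1 rule, but both libraries took part in this choice of genes, so the counts are descriptions.

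The lower genes included trafficking and activation genes. Ccr6, the chemokine receptor for CCL20, was at 0.04 in Ighv11-2 and 0.38 in other cells of WT and at 0.21 and 0.57 in DTR, and Gpr171, a G protein-coupled receptor, at 0.12 and 0.65 and at 0.29 and 1.13. Nr4a1, an immediate early gene of antigen receptor signalling, was at 1.15 and 2.62 in WT and at 1.95 and 4.56 in DTR. Egr1, which responds to the same signal, Cnn3 and Adam19 were also among the 7.

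The higher genes were Camk2n1, an inhibitor of CaM kinase II, at 0.35 and 0.13 in WT and 0.90 and 0.35 in DTR, Zcwpw1, a histone methylation reader, at 2.70 and 0.92 and at 4.83 and 2.03, and Anxa2, a membrane-binding annexin, at 3.0 and 1.39 and at 1.70 and 0.82. Adm, one of the 7 rule markers, and Abcg1 were also among the 6. Ccl5 was the last, and 197 of its 249 UMIs in WT and all 115 in DTR were in 1 cell each.

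**Figure D5:**
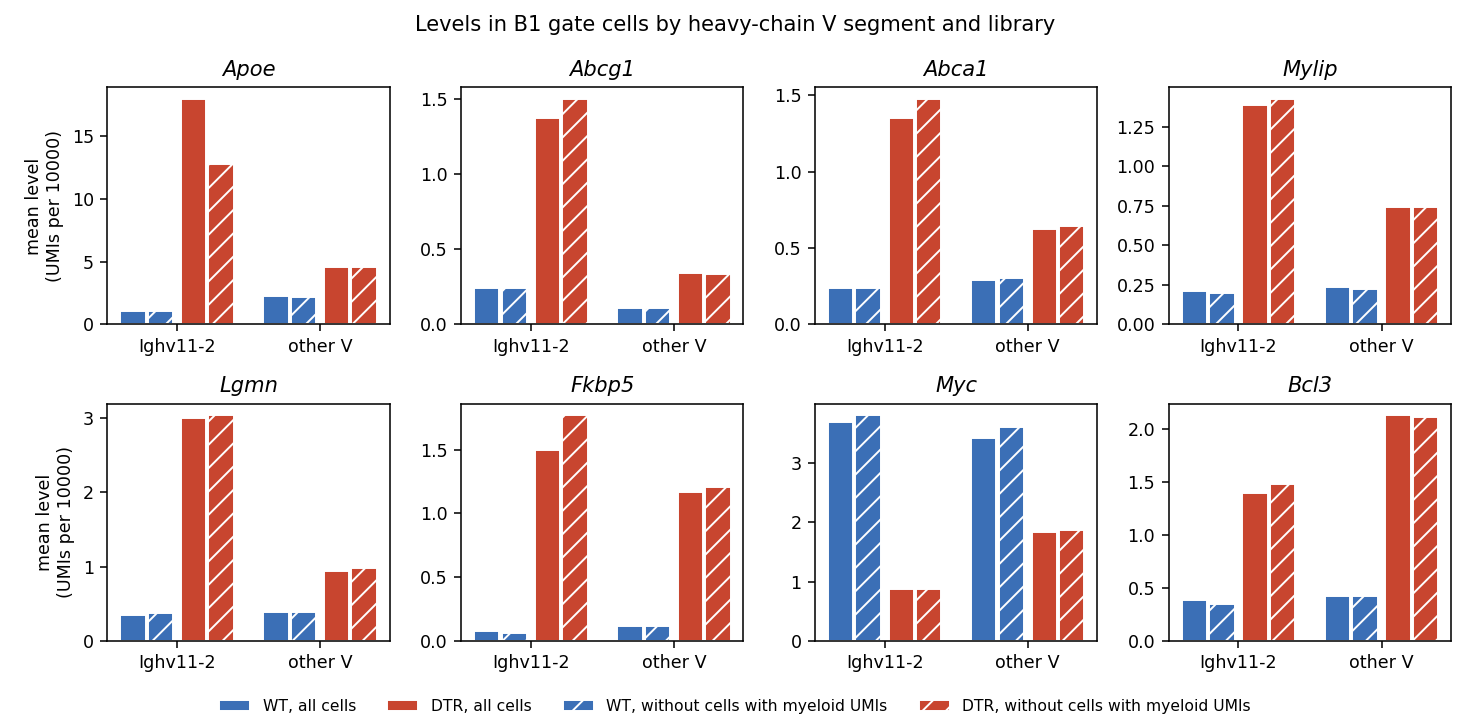
Mean level (UMIs per 10000) in WT and DTR of genes in B1 cells assigned to Ighv11-2 and in B1 cells assigned to another heavy-chain V segment (other V), with hatched bars for the same without cells that held myeloid UMIs. Apoe goes from 1.06 to 18.0 in Ighv11-2 cells and from 2.26 to 4.60 in the others, and Myc from 3.69 to 0.88 and from 3.43 to 1.83.

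The cholesterol export genes had a wider spread between libraries in Ighv11-2 cells than in other assigned cells, as the plot by V segment shows. Apoe was at 1.06 in WT and 18.0 in DTR Ighv11-2 cells, and at 2.26 and 4.60 in the other assigned cells. Without cells that held myeloid UMIs, it was at 1.04 and 12.8, and at 2.21 and 4.62. Abcg1 was at 0.24 and 1.37 in Ighv11-2 cells and at 0.11 and 0.34 in the others, and in cells with no assigned segment it was at 0.07, from 4 UMIs, and 0.54. The same order held for Abca1, at 0.24 and 1.35 against 0.29 and 0.63, for Mylip, at 0.21 and 1.39 against 0.24 and 0.74, and for Lgmn, at 0.35 and 3.0 against 0.39 and 0.94.

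Apoe UMIs were found in 90.7% of the 54 DTR Ighv11-2 cells and in 64.3% of the 129 others, while in WT it was 40% and 47.3%. Of the 1013 Apoe UMIs in those 54 cells, 211 were in 1 cell. The 43 of them without myeloid UMIs held 376, with a level of 12.8 and Apoe UMIs in 93.0% of cells. Median depth was 10409 UMIs in WT and 7572 in DTR Ighv11-2 cells. The difference between Ighv11-2 and other cells in their ratio of DTR over WT was not tested, as each has 1 library per group.

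Other genes, given side by side, did not share one order. Fkbp5 was at 0.08 in WT and 1.5 in DTR Ighv11-2 cells, and at 0.12 and 1.16 in the others. Ccr1 was at 1.14 and 0.32, and at 0.74 and 0.14. Lifr ran from 0.14 to 0.43 in Ighv11-2 cells and from 0.19 to 0.98 in the others, and Vpreb3 from 0.08 to 0.09 and from 0.14 to 0.56. The higher Vpreb3 level of DTR was thus seen in cells with other V segments and not in the 54 Ighv11-2 cells. Myc was lower in DTR in both, from 3.69 to 0.88 and from 3.43 to 1.83.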

How the data were processed

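The authors deposited, per library, a matrix of natural log values with its cell barcodes and a shared gene list. Per the file values, each entry is ln(1 + UMIs per 10000 UMIs of the cell), and 99.964% of WT and 99.908% of DTR entries gave a whole UMI within 0.1. The labels name a 5′ kit and, in the submitters' processing notes, Cell Ranger 6.0.0 and mm10, whereas the study's methods name a 3′ kit and another Cell Ranger version, and which applies is not settled here. V segments were read as the 5′ kit would allow.

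Cells with 200 to 7500 detected genes were kept. Groups came from the genotype labels, with 1 library in each. The B1 rule, its markers and all 36 gene lists were chosen with earlier results of these data known, and 4 of the lists (LXR targets, sterol synthesis, IL-6 family, lysosome) after the levels had been seen. Levels were means over cells of UMIs per 10000, and log2 ratios used a pseudocount of 0.02. Genes were compared with at least 100 UMIs over both libraries and called past 2-fold. The named genes were the 10 highest and 10 lowest with UMIs in at least 5% of the cells of 1 library and at most 20% of UMIs in 1 cell of the higher library, V, D and J segments left out, the list members past 2-fold and up to 4 further members with the most UMIs, the rule's markers, and the 6 most frequent V segments with both known pairs. Intervals are 95% exact binomial (Clopper-Pearson, or conditional on the summed UMIs), and for ratios of shares from the Katz log method. Counting error is all they cover, and they say nothing of variation between mice.

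Scrublet's automatic threshold marked 2 WT and 73 DTR cells, too few in WT to be a working call, so doublets were kept and a rank rule was an alternative chosen after seeing the data. Alternatives varied the pseudocount, the minimum UMIs, the scaling, the rule and the cells used. On simulated data for the WT to DTR comparison in B1 cells, with 200 genes changed, 185 of 193 changed genes that could be compared were called, and 1 of 6688 unchanged genes. All simulated cells were drawn from the summed WT profile at real depths, without variation between cells, free RNA or doublets. The simulation thus covers counting error only and gives no rate of false calls for the real libraries. Python 3.11.15 with numpy 2.4.6, pandas 2.3.3, scipy 1.17.1, scanpy 1.11.5 and matplotlib 3.10.9 was used.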

Additional observations from a re-analysis of the deposited data

Results flagged for a closer look

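In B1 cells the log2 ratio of DTR over WT had the opposite sign to that in B2 cells for 5 myeloid genes. It was -2.11 for S100a8 (2.72 in B2 cells), -2.05 for S100a9 (2.88) and -2.32 for Retnlg (2.65), 3 neutrophil genes, and 2.36 for C1qb (-1.42) and 1.11 for C1qa (-1.25), which encode complement chains of macrophages. Most S100a8 and S100a9 UMIs of WT B1 cells came from 1 cell, with 1317 of 1343 and 2326 of 2383, as did 187 of 188 Retnlg UMIs. Single cells also held most UMIs in B2 cells, with 361 of 393 in WT and 242 of 256 in DTR for S100a8, 546 of 624 and 431 of 454 for S100a9, and 97 of 103 and 66 of 68 for Retnlg. With 1 library per group, the differences between B1 and B2 cells were not tested.

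Ighv11-2 cells against other assigned B1 cells gave opposite log2 ratios in WT and DTR for 6 genes: Fcer1g at -1.89 in WT and 3.16 in DTR, Alox5ap at -2.13 and 2.76, Apoe at -1.08 and 1.97, Ifitm3 at -1.61 and 3.67, Trf at -1.19 and 4.34, and Lyz2 at -1.99 and 5.99. These differences were not tested either. Without cells that held at least 3 myeloid UMIs, the DTR levels in Ighv11-2 and other cells were 0.10 and 0.07 for Fcer1g and 12.8 and 4.62 for Apoe. Lyz2 was at 0.03 and 0.03, but it is one of the genes of that filter, so its fall was built in. In the DTR Ighv11-2 cells left, Ifitm3 was at 0.19, Alox5ap at 0.03 and Trf at 0.03.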

How the results depend on the processing

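No paired analysis was possible because each group is 1 library, and for the same reason no replicate could be left out. The ratio of B1 shares, DTR over WT, was 0.729 of all cells, but 1.26 of B gate cells and 1.36 outside plasma and neutrophil gates. It was 0.563 with at least 3 markers, 0.597 with only the first 4 markers, and 0.506 with the rule applied to thinned cells.

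The counts of 142 genes higher, 96 lower and 67 list members past 2-fold became 342 higher and 251 lower with no minimum of UMIs, 149 lower at 50 UMIs, 89, 53 and 43 at 200 UMIs, and 49, 29 and 24 with cells thinned to 2000 UMIs. With a pseudocount of 0.1, 53 genes were lower. In alternatives chosen after seeing the data, 92 genes were higher and 43 list members past 2-fold in Ighv11-2 cells alone, 90 genes were higher in other assigned cells, and 41 list members were past 2-fold without cells holding myeloid UMIs. Except for the pseudocount, these settings also changed how many genes could be compared, so the counts are not shares of a fixed set. The Ighv11-2 share was 26.7% in WT and 18.2% in DTR over all B1 cells, also added later, against 29.7% and 29.5% of assigned cells. Of the genes past 2-fold, 59.7% were higher in DTR, and 45.2% in other assigned cells. None of the 20 highest and lowest named genes changed sign under any alternative run, but they were chosen as extremes of the same cells. Their values were labelled as moved for 10 of the 20 in Ighv11-2 cells alone and 6 in other assigned cells. The label fell on 5 at a pseudocount of 0.1, 4 in thinned cells, 4 with at least 3 markers, and fewer or none elsewhere. The log2 ratio of Vpreb3 ran from 0.21 to 2.54 and that of Il10 from -2.12 to -0.94, so both also fell short of 2-fold. The rest stayed past 2-fold. The median of the neutrophil list turned to 1.53 without doublets by rank and to 0.32 without the top cell of each gene. That of the macrophage list turned to -0.23 in other assigned cells and -0.13 without myeloid UMIs. The myeloid filter removes cells by genes of the macrophage, neutrophil and dendritic lists. Values of those lists under it, and the count of list members, are therefore partly set by the filter itself. The cause of the other changes was not tested. Genes under 100 UMIs, and mouse-to-mouse variation, are beyond these 2 libraries.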
